A study of Mus musculus with 6 samples.

Results

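The genes described here are the transcription factors that specify and build skeletal muscle, together with 1 gene of myoblast fusion. They are the paired box factors Pax3 and Pax7, the myogenic basic helix-loop-helix (bHLH) factors Myod1, Myf5, Myf6 and Myog, the myocyte enhancer factor 2 (MEF2) genes Mef2a, Mef2c and Mef2d, and Mymk, which encodes myomaker. The members were chosen by their gene symbols: 10 of the 27179 genes counted, and all 10 were among the 16483 genes with enough counts to be tested. RNA was sequenced from quadriceps muscle 3 weeks after deletion of Dnm1l, in 3 control mice, called B, C and D, and in 3 miDrp1KO mice, called A, E and F. The miDrp1KO mice carried floxed Dnm1l, the gene of the mitochondrial fission protein Drp1, and the HSA-MerCreMer transgene, a tamoxifen-inducible Cre under the human ACTA1 promoter. Controls had the label Control f/f, that is, floxed Dnm1l without the Cre, although the study's methods allow flox/+ as well as flox/flox controls. In both groups tamoxifen was given on 4 days at 3 months of age, at a daily dose of 50 mg/kg, and all 6 mice were fed normal chow on a background backcrossed to C57BL/6J. That promoter drives Cre in the muscle fibres, so the satellite cells, which contain most of the muscle's Pax7, would largely keep their Dnm1l. Each library was made from whole muscle, so fewer cells of a type and less RNA per cell cannot be told apart.

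The factors act in a cascade that is well known from development and repair. Pax3 and Pax7 mark muscle progenitors, and Pax7 marks the satellite cells that lie on the fibres of adult muscle. Myf5 and Myod1 commit these cells to the muscle lineage, Myog drives their differentiation, and Myf6 (MRF4) is the bHLH factor that stays on in mature fibres. The bHLH factors bind the E-box, a short DNA motif, as dimers with E proteins. MEF2 factors are MADS-box proteins that bind an AT-rich site, work with the bHLH factors on muscle genes and, in adult fibres, take part in activity-dependent expression. Myomaker is a membrane protein that myoblasts need in order to fuse.

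The 2 motifs of this network were looked for in the members' promoters, since the data compare factors that are known to bind one another's genes. RefSeq promoter windows on GRCm38.p6 span 300 bases, 250 before to 50 after an annotated start. Such windows were at hand for 6 of the 10 members (Pax7, Myf5, Myog, Mef2a, Mef2c and Mef2d), 8 windows in all. Of these, only the Myog window has its start at the outermost end of the gene span given below. The other starts lie inside the span of their gene, downstream of that end, so they are starts of some of its transcripts only. The E-box was searched as CANNTG, which reads the same on both strands, and the MEF2 site by its core, CTANNNNTA, on either strand. The members' 8 windows included 3 with an E-box and 4 with a MEF2 core, beside 72.3% and 21.0% of all 32851 windows. The Myog promoter is shown because it held both motifs close to the start, with E-boxes at -138 and -12 and a MEF2 core at -64 (first base of each match, with -1 as the base before the start). Mef2a is shown because a match to the full MEF2 consensus, found in 3.19% of all windows, lay across this start from -2 to 8. Mef2d is shown for comparison, as the MEF2 gene with the lowest unadjusted p of the family: its window held neither motif. Capitals mark the matches in the sequences below, which are from RefSeq and run 5′ to 3′ on the gene's strand.
Myog, chr1:134289854-134290003, plus strand, 150 bases before the start: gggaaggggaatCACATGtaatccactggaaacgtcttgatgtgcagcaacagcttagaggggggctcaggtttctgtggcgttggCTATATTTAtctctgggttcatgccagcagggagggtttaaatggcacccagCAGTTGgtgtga
Mef2a, chr7:67372851-67372918, minus strand, 60 bases before to 8 after the transcript start: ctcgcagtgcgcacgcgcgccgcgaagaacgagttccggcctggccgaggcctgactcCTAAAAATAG
Mef2d, chr3:88142272-88142371, plus strand, 100 bases before the transcript start: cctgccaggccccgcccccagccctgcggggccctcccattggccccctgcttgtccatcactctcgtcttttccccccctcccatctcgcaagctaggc
A match says only that these letters are in the window. Among the other members, Mef2c held an E-box in 2 of its 3 windows and a MEF2 core in 1 of them, Myf5 held a MEF2 core at -182, and Pax7 had neither motif.

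Control libraries held 13989588 to 62042255 counts and miDrp1KO libraries 20028624 to 28829756. Values are CPM, the usual scaling of a gene's counts to the size of its library, with library sizes adjusted to each other by edgeR's TMM method. Markers of muscle fibres summed to 282800 to 344600 CPM in control and 129200 to 261600 CPM in miDrp1KO libraries, and 12 of the 13 were lower in miDrp1KO muscle (median log2 fold change -0.64, 3 of them at an unadjusted p under 0.05, and 6 without miDrp1KO A). Dnm1l, the targeted gene, was at 156, 114 and 140 CPM in control B, C and D and at 70.6, 81.3 and 66.2 CPM in miDrp1KO A, E and F. The groups did not overlap, and the log2 fold change of miDrp1KO over control was -0.91 (SE 0.18, edgeR adjusted p = 0.362, exact permutation p = 0.1). DESeq2 called Dnm1l, with an adjusted p of 0.00382. Ribosomal RNA genes took 3.36 to 15.6% of the counts of control libraries and 1.47 to 24.4% of those of miDrp1KO libraries. The library of miDrp1KO A correlated better with the control libraries (mean Spearman 0.975) than with the other two of its own genotype (mean Spearman 0.964). For miDrp1KO E these means were 0.971 with control and 0.971 with its own genotype, and for F they were 0.968 and 0.970. The members, and the lists whose counts moved most, are therefore also given without A, which had the widest gap of the 3. Leaving out the miDrp1KO library most like the controls tends by itself to widen group differences. Values without A are thus a description and no support for a difference. The samples were separate mice, and with 3 mice a group the smallest p that the 2-sided exact permutation test can give is 0.1.

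In control muscle the transcripts were dominated by Mef2c and Myf6, and the progenitor factors were the scarcest apart from Mymk. Levels were compared between genes in RPKM, which is CPM divided by the length of the gene's exons in kilobases. Mef2c was at 157 ± 5.50 RPKM (SD, n = 3), Myf6 at 43.0 ± 3.51, Mef2a at 27.9 ± 1.74 and Mef2d at 7.97 ± 1.06, and no library of one of these overlapped those of the next. Myod1 (3.26 ± 0.108 RPKM) and Myog (3.15 ± 0.480) overlapped each other. Myf5 (0.697 ± 0.233 RPKM) and Pax3 (0.576 ± 0.175) likewise overlapped, Pax7 was lower at 0.227 ± 0.0359, and Mymk was lowest at 0.0613 ± 0.0606. The order of the means in miDrp1KO muscle was the same from Mef2c (148 ± 33.1 RPKM) down to Mymk (0.310 ± 0.0667), with more neighbours overlapping. Myf6 overlapped Mef2a there, Mef2d overlapped Myod1, Myod1 overlapped Myog, and Myf5, Pax3, Pax7 and Mymk each overlapped the next.

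**Figure D1:**
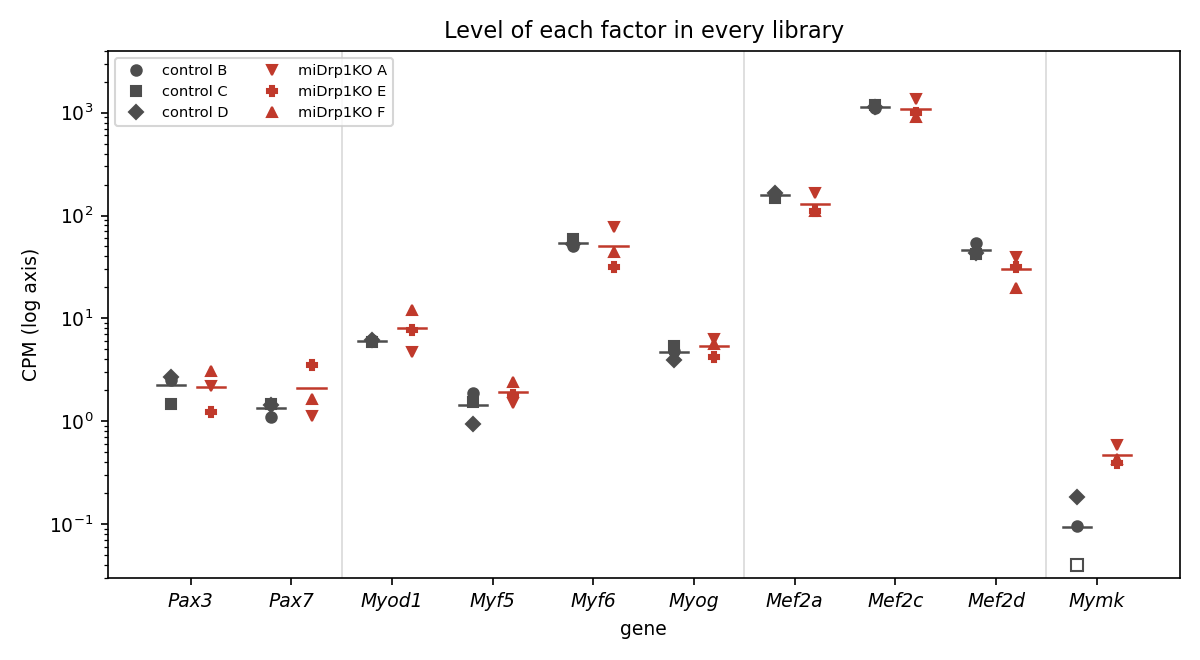
Level of each factor in CPM (log axis) in every library, with control libraries in grey, miDrp1KO libraries in red and horizontal lines for the group means; vertical lines part the paired box, bHLH, MEF2 and fusion genes. The open square at the foot of the axis is control C, which held 0 counts of Mymk; Mef2d and Mymk are the 2 genes whose groups do not overlap.

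No member passed an adjusted p of 0.05, and the members were split evenly in direction. The counts were fitted with edgeR's quasi-likelihood test across all 16483 genes, which called 2 of them (0.0121%) after Benjamini-Hochberg adjustment and 1796 at an unadjusted p under 0.05. Of the 10 members, 5 had a fold change above 0 and 5 below it, with a median log2 fold change of 0.06 beside 0.02 over all genes tested. One higher member (Mymk, which passed the filter on low counts only through its miDrp1KO libraries) and 1 lower member (Mef2d) had an unadjusted p under 0.05, beside 4.68% of all genes in the higher and 6.22% in the lower direction. The same 2 were the members whose groups did not overlap, beside 7.67% of all genes with every miDrp1KO library above every control and 10.3% with every one below. DESeq2, the tool the study's methods name, gave an adjusted p to 4018 genes and called 94 of them (2.34%). It gave one to 4 of the 10 members and called 0, and 2 members had an unadjusted p under 0.05 by it, beside 1709 of all genes.

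Without miDrp1KO A, 5 members had an unadjusted p under 0.05, in a fit where the share also rose over all genes, to 8.55% higher and 8.9% lower of 17845. By edgeR, Myod1 (log2 fold change 0.72, edgeR adjusted p = 0.175) and Pax7 (0.99, edgeR adjusted p = 0.233) were higher in that fit. Lower were Mef2d (-0.83, edgeR adjusted p = 0.121), Mef2a (-0.49, edgeR adjusted p = 0.184) and Myf6 (-0.50, edgeR adjusted p = 0.22). Because A was picked for its likeness to the controls, a rise in such counts is built into that choice. The 5 members are therefore not further support for a difference. That fit was one of several that left out a library, and the Dnm1l level of miDrp1KO A, 70.6 CPM, was below that of every control.

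**Figure D2:**
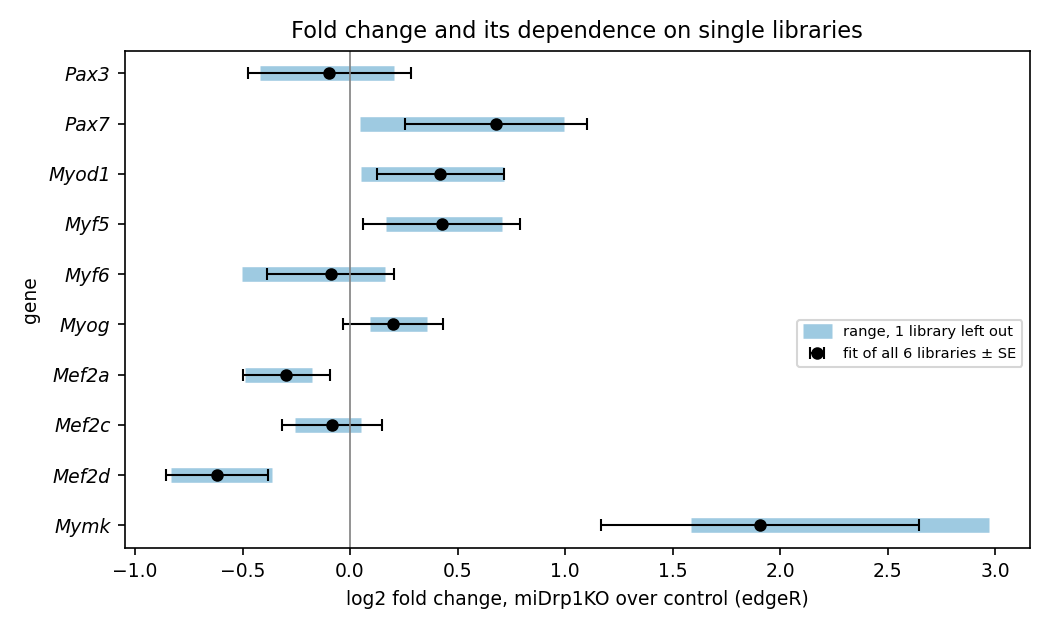
Log2 fold change of miDrp1KO over control from edgeR for each member; points are the fit of all 6 libraries with bars of 1 SE, and the blue bands span the lowest to the highest value when 1 library is left out. Mef2d and Mef2a stay below 0 and Mymk, Pax7, Myod1, Myf5 and Myog above 0 in every such fit, whereas the bands of Pax3, Myf6 and Mef2c cross 0.

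Pax3 and Pax7, the progenitor factors, are transcripts of few cells in adult muscle, and both were counted at low levels. Pax7 (chromosome 4, 139737059 to 139833530, minus strand) was at 1.09, 1.46 and 1.45 CPM in control B, C and D and at 1.12, 3.53 and 1.63 CPM in miDrp1KO A, E and F. Library E held the high value, and A lay inside the control range. The log2 fold change of 0.68 (SE 0.42, edgeR adjusted p = 0.578) fell to 0.04 without E. Pax3 (chromosome 1, 78101267 to 78197136, minus strand) was at 2.51, 1.46 and 2.72 CPM in control and 2.19, 1.23 and 3.07 CPM in miDrp1KO muscle. Its groups overlapped throughout, with a log2 fold change of -0.10 (SE 0.38, edgeR adjusted p = 0.952). Summed over libraries, Pax7 rested on 130 control and 201 miDrp1KO counts, and Pax3 on 236 and 159.

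Myod1 and Myf5, the commitment factors, had higher means in miDrp1KO than in control muscle, with groups that overlapped. Myod1 (chromosome 7, 46376474 to 46379092, plus strand) was nearly constant in control B, C and D at 6.20, 5.83 and 6.15 CPM, and ranged over 4.67, 7.62 and 12.1 CPM in miDrp1KO A, E and F. Library F was the highest and E next, while A was below every control. The log2 fold change was 0.42 (SE 0.30, edgeR adjusted p = 0.632), and it fell to 0.05 without F. Myf5 (chromosome 10, 107482908 to 107486927, minus strand) was at 1.89, 1.53 and 0.933 CPM in control and 1.51, 1.81 and 2.4 CPM in miDrp1KO muscle. The groups overlapped, with a log2 fold change of 0.43 (SE 0.37, edgeR adjusted p = 0.701) from 117 and 155 counts in all. It ran from 0.17 without control D to 0.71 without control B.

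Myog, the differentiation factor, was at 4.78, 5.39 and 3.96 CPM in control B, C and D and at 6.37, 4.22 and 5.61 CPM in miDrp1KO A, E and F (chromosome 1, 134290004 to 134292548, plus strand). Here A was the highest of the 6 libraries and E lay between the controls. The log2 fold change was 0.20 (SE 0.23, edgeR adjusted p = 0.787), with a 95% interval from -0.25 to 0.66, and it ran from 0.09 without A to 0.36 without E. Myf6 (chromosome 10, 107492848 to 107494723, minus strand), which lies beside Myf5, was at 50.6, 59.2 and 53.0 CPM in control and at 77.8, 31.5 and 43.8 CPM in miDrp1KO muscle. Library A was above every control, and E and F were below every control. This gave a log2 fold change of -0.09 (SE 0.29, edgeR adjusted p = 0.939) that turned to 0.16 without E and to 0.03 without F.

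Within the bHLH family, the Myf6 and Myod1 shares of 2 miDrp1KO libraries lay on one side of the controls and those of the third on the other. Shares were taken of the family's summed reads per length. Myf6 made up 84.3, 86.2 and 86.8% in control B, C and D and 89.2, 76.2 and 75.3% in miDrp1KO A, E and F. Myod1 made up 7.02, 5.77 and 6.83% in control and 3.63, 12.5 and 14.1% in miDrp1KO muscle. Libraries E and F thus held less Myf6 and more Myod1 as a share than any control, and A held more Myf6 and less Myod1 than any control. The difference in means was -5.57 percentage points for Myf6 (exact permutation p = 0.4) and 3.54 for Myod1 (exact permutation p = 0.4). The Myf6 difference was -10.1 points without A, -3.57 without E and -3.10 without F. Myog and Myf5 shares were also higher in E and F than in any control, at 8.62 and 8.15% for Myog and 2.66 and 2.5% for Myf5. Library A lay inside the control range for both, at 6.16% for Myog and 1.05% for Myf5. The exact permutation p was 0.3 for each of these 2 genes. The family's summed level was 50.1 ± 3.72 RPKM in control and 49.3 ± 18.4 RPKM in miDrp1KO muscle (SD, n = 3, exact permutation p = 0.9).

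The log2 ratio of Myog to Myod1 counts, with 0.5 added to each, did not separate the groups. It was -0.37, -0.11 and -0.63 in control B, C and D, and 0.45, -0.85 and -1.10 in miDrp1KO A, E and F. Library A had the highest ratio of the 6, and E and F had the lowest pair. The difference of means was -0.13 (exact permutation p = 0.9). The counts are from whole muscle, so the ratio does not read out myoblasts alone, and the part of fibre type in it was not tested.

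Mef2d was the member with the lowest unadjusted p. It encodes a MEF2 factor of which muscle makes a splice form of its own, which counts per gene do not show. Mef2d (chromosome 3, 88141941 to 88172091, plus strand) was at 53.7, 42.6 and 43.4 CPM in control B, C and D and at 39.6, 31.8 and 19.6 CPM in miDrp1KO A, E and F. Every miDrp1KO library was below every control, A by the smallest margin and F by the largest. The log2 fold change was -0.62 (SE 0.24), with an unadjusted p of 0.0249 and an edgeR adjusted p of 0.407. It stayed below 0 in all 14 alternative fits, from -0.83 without miDrp1KO A to -0.36 without F. The unadjusted p ran from 0.00386 to 0.0861 over these fits, and was above 0.05 without control B, without miDrp1KO F and when each library's share of ribosomal RNA was a term of the fit. The final exon of Mef2d overlaps the antisense gene 1700113A16Rik, and the strand setting of the counting was not given in the sources used here, so reads there may be shared. That gene was counted at 1.39 to 2.03 CPM, with a log2 fold change of -0.16 (SE 0.31, edgeR adjusted p = 0.881).

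Mef2a (chromosome 7, 67231163 to 67376456, minus strand) was at 162, 147 and 166 CPM in control B, C and D and at 165, 112 and 111 CPM in miDrp1KO A, E and F. Libraries E and F were below every control and A was inside the control range. The log2 fold change was -0.30 (SE 0.20, edgeR adjusted p = 0.612), and -0.18 without F. Mef2c (chromosome 13, 83504017 to 83667079, plus strand), the most abundant of the factors, was at 1105, 1185 and 1144 CPM in control and at 1354, 985 and 899 CPM in miDrp1KO muscle. Library A was again above every control, with E and F below every control. The log2 fold change was -0.08 (SE 0.23, edgeR adjusted p = 0.924), with a 95% interval from -0.54 to 0.37. Mef2b, the remaining MEF2 gene and no member here, was at 0.0729 to 0.270 CPM and too low to be tested.

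Within the MEF2 family the share of Mef2c was higher and that of Mef2d lower in every miDrp1KO library than in any control. Mef2c made up 80.0, 83.0 and 81.1% of the family's reads per length in control B, C and D and 83.8, 84.3 and 84.3% in miDrp1KO A, E and F. Mef2d made up 4.87, 3.73 and 3.85% in control and 3.06, 3.41 and 2.30% in miDrp1KO muscle. Here library A lay with its own genotype for both genes, unlike in the levels of Mef2c. The differences in means were 2.79 percentage points for Mef2c and -1.23 for Mef2d, each with an exact permutation p of 0.1, the smallest this design allows. Over the 7 shares compared in both families the Benjamini-Hochberg adjusted p was 0.35 for each. The Mef2a share was 15.1, 13.3 and 15.1% in control and 13.1, 12.3 and 13.4% in miDrp1KO muscle, with groups that overlapped (exact permutation p = 0.2). Summed, the family was at 192 ± 3.28 RPKM in control and 176 ± 40.0 RPKM in miDrp1KO muscle (SD, n = 3, exact permutation p = 0.4).

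**Figure D3:**
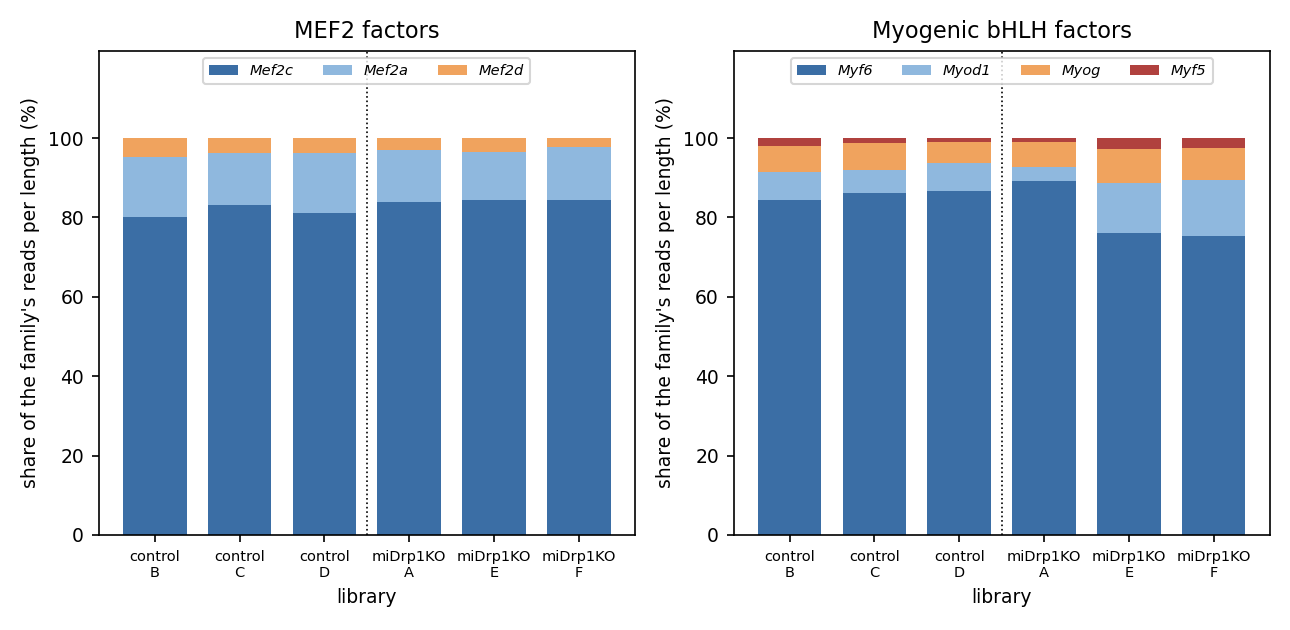
Share of each gene in the summed reads per length (%) of the MEF2 factors (left) and of the myogenic bHLH factors (right) in each library, stacked to 100%; the dotted line parts control from miDrp1KO libraries. Mef2c takes 80.0 to 83.0% of the MEF2 reads in control and 83.8 to 84.3% in miDrp1KO libraries, and Myf6 takes 76.2 and 75.3% of the bHLH reads in miDrp1KO E and F beside 84.3 to 89.2% in the other 4.

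Mymk (chromosome 2, 27061636 to 27072161, minus strand), which is silent in resting fibres and switched on in fusing myoblasts, was close to the limit of detection in every library. It had 2, 0 and 11 counts in control B, C and D and 12, 16 and 9 counts in miDrp1KO A, E and F. In CPM these were 0.0947, 0 and 0.183 in control and 0.583, 0.392 and 0.432 in miDrp1KO muscle. Every miDrp1KO library was above every control. Pooled, the 13 control and 37 miDrp1KO counts gave a ratio of 3.29 per library size, with a 95% interval of 1.71 to 6.74 that covers counting error only. The same kind of interval also left out 1 for Pax3 (0.632 to 0.955), Myf5 (1.195 to 1.961) and Pax7 (1.424 to 2.242), whose groups overlapped. It therefore does not set Mymk apart. Control D held 11 of the 13 control counts, and the ratio of the group means in CPM was 5.06. The fitted log2 fold change, which depends on how edgeR treats low counts, was 1.91 (SE 0.74), and it ran from 1.59 without control C to 2.97 without control D. The unadjusted p was 0.0254 and the edgeR adjusted p 0.409. Mymk passed the filter on low counts only through the miDrp1KO libraries, the group in which it is high. These p-values and its place among the members at an unadjusted p under 0.05 therefore do not count as support for a difference. Neither do the pooled interval and the lack of overlap between its groups. The unadjusted p was above 0.05 with the ribosomal RNA term and without control B, control C, miDrp1KO A or miDrp1KO F, 0.0673 at the highest. The gene has too few counts to be tested where 10 counts are required in every library.

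Genes near the factors in the network were taken from lists, and no list gene passed an adjusted p of 0.05 in edgeR. The counts of list genes at an unadjusted p under 0.05 stand beside 4.68% of all genes higher and 6.22% lower. Among 17 upstream homeobox, T-box and EYA genes tested, 9 were higher and 8 lower, with 1 and 2 at an unadjusted p under 0.05 and a median log2 fold change of 0.04. Tbx1, a T-box factor of head muscle, came closest to a call, at 15.9, 17.5 and 20.0 CPM in control and 8.31, 7.11 and 7.01 CPM in miDrp1KO muscle. Its groups were far apart, A included, with a log2 fold change of -1.25 (SE 0.17, edgeR adjusted p = 0.0799). The other two at an unadjusted p under 0.05 were the somite homeobox gene Meox1 (0.85, edgeR adjusted p = 0.392) and Eya1, a coactivator of homeobox factors (-0.38, edgeR adjusted p = 0.45).

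Of 22 bHLH partners and inhibitors tested, 14 were higher and 8 lower, with a median log2 fold change of 0.10. At an unadjusted p under 0.05 were 2 higher and 3 lower. The lower ones were the bHLH repressors Bhlhe41 (log2 fold change -0.88) and Bhlhe40 (-0.51) and Tcf15 (-1.08), a factor of the early somite, and the higher one of at least 1 CPM was Scx (0.56), a tendon factor. The other higher one was Snai1 (1.47), a repressor that binds E-boxes. The edgeR adjusted p of Bhlhe41, Bhlhe40, Tcf15 and Scx ran from 0.393 to 0.422. The inhibitor Id1, which takes E proteins away from the bHLH factors, was at 4.26, 2.70 and 4.10 CPM in control and 4.67, 3.85 and 7.58 CPM in miDrp1KO muscle, and the groups overlapped.

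The genes that act on MEF2 and those that MEF2 is known to drive were more often lower than higher. Of 31 corepressors, coactivators and kinases tested, 21 were lower and 10 higher, 7 and 0 of them at an unadjusted p under 0.05, with a median of -0.19. Camk2b, a kinase that moves class II histone deacetylases out of the nucleus, was at 82.0, 78.6 and 85.1 CPM in control and 53.9, 40.1 and 44.4 CPM in miDrp1KO muscle. It was the 1 gene of this list that DESeq2 called (log2 fold change -0.82, DESeq2 adjusted p = 0.00585), whereas its edgeR adjusted p was 0.362. Srf, the MADS-box partner factor (log2 fold change -0.60), Mapk14, the p38 kinase that phosphorylates MEF2 (-0.62), and Hdac4, the repressor that binds it (-0.78), had edgeR adjusted p of 0.368 to 0.379. All 4 of these genes had groups that did not overlap, but they were named for their low p, which favours such genes. Of the 31 genes tested, 11 had every miDrp1KO library below every control, beside 10.3% of all genes.

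Of 30 MEF2 target genes of striated muscle tested, 25 were lower and 5 higher, 9 and 0 of them at an unadjusted p under 0.05, with a median log2 fold change of -0.46. Pfkm, the phosphofructokinase of muscle, was at 2220, 2116 and 2325 CPM in control and 1661, 1189 and 1120 CPM in miDrp1KO muscle (log2 fold change -0.75, edgeR adjusted p = 0.382). Ampd1, the AMP deaminase of muscle (-0.78), Hrc, a calcium-binding protein of the sarcoplasmic reticulum (-0.71), and Myom2, a protein of the M band (-1.10), had edgeR adjusted p of 0.382 to 0.392. DESeq2 called 3 genes of the list: Pfkm, Myom2 and the fast myosin heavy chain gene Myh4. A number of these targets are also fibre genes, and 6 of the 30 stand on the lists of myofibre or fast fibre markers. Fast fibre markers were lower for 10 of 11 genes, with a median of -0.64 and a summed level of 140100 to 159300 CPM in control and 71010 to 122200 CPM in miDrp1KO muscle. Slow fibre markers were higher for 11 of 11 genes, 0 of them at an unadjusted p under 0.05 by edgeR or DESeq2, and summed to 93.6 to 630 CPM in control and 151 to 884 CPM in miDrp1KO muscle. The part of fibre type in the values of the MEF2 targets was not tested.

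Of 35 targets and differentiation genes of the bHLH factors tested, 16 were higher and 19 lower, with 3 and 5 at an unadjusted p under 0.05 and a median of -0.03. Cdh15, the M-cadherin of satellite cells and myoblasts, was at 12.3, 14.4 and 15.3 CPM in control and 9.72, 6.86 and 8.25 CPM in miDrp1KO muscle. The groups did not overlap, with a log2 fold change of -0.76 (SE 0.19, edgeR adjusted p = 0.362). Igfn1 was also lower (-2.20, edgeR adjusted p = 0.379), with control C far above the other libraries. It was at 24.3, 80.8 and 28.95 CPM in control B, C and D and at 11.8, 9.63 and 7.68 CPM in miDrp1KO A, E and F. DESeq2 called 2 genes here, Igfn1 and the perinatal myosin Myh8. Myl4, an embryonic light chain (0.73), and Rassf4 (0.68) were higher. The 27 fusion genes tested, Mymk among them, were 15 higher and 12 lower with a median of 0.03. Of these, 3 were lower at an unadjusted p under 0.05, namely Cdh15, the membrane repair gene Dysf (-0.62) and the GTPase gene Rac1 (-0.52), and Mymk was the only higher one.

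Genes of embryonic or regenerating fibres gave no common direction, with 5 of 11 higher and 6 lower, and 2 at an unadjusted p under 0.05 (4 without miDrp1KO A). With all libraries these 2 were Myl4, which was higher, and Myh8 (log2 fold change -1.29), which was lower. DESeq2 called Myh8 (DESeq2 adjusted p = 0.0343). The list's summed level, mostly Myh8, was 2462 to 2818 CPM in control and 661 to 2174 CPM in miDrp1KO muscle. Myh3, the embryonic myosin heavy chain, was at 273, 350 and 284 CPM in control and at 280, 95.5 and 79.6 CPM in miDrp1KO A, E and F (log2 fold change -1.0, edgeR adjusted p = 0.522), and A again lay with the controls. Reads on it and on Myh8 may be shared with the other myosin heavy chain genes, which are near copies. Denervation responsive genes, a list that holds 1 member, were 8 higher and 7 lower of 15, with Runx1 (0.75) higher and Hdac4 lower at an unadjusted p under 0.05. Cell cycle genes were higher for 14 of 15, with a median log2 fold change of 0.47, and 4 had an unadjusted p under 0.05: Top2a, Mki67, Ccna2 and Kif11. Mki67, which dividing cells express, was at 2.79, 1.24 and 2.30 CPM in control and 3.74, 4.83 and 3.07 CPM in miDrp1KO muscle (log2 fold change 0.86, SE 0.32, edgeR adjusted p = 0.393). The summed level of all 20 listed cell cycle genes was 42.2 to 48.9 CPM in control and 53.3 to 54.6 CPM in miDrp1KO muscle.

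**Figure D4:**
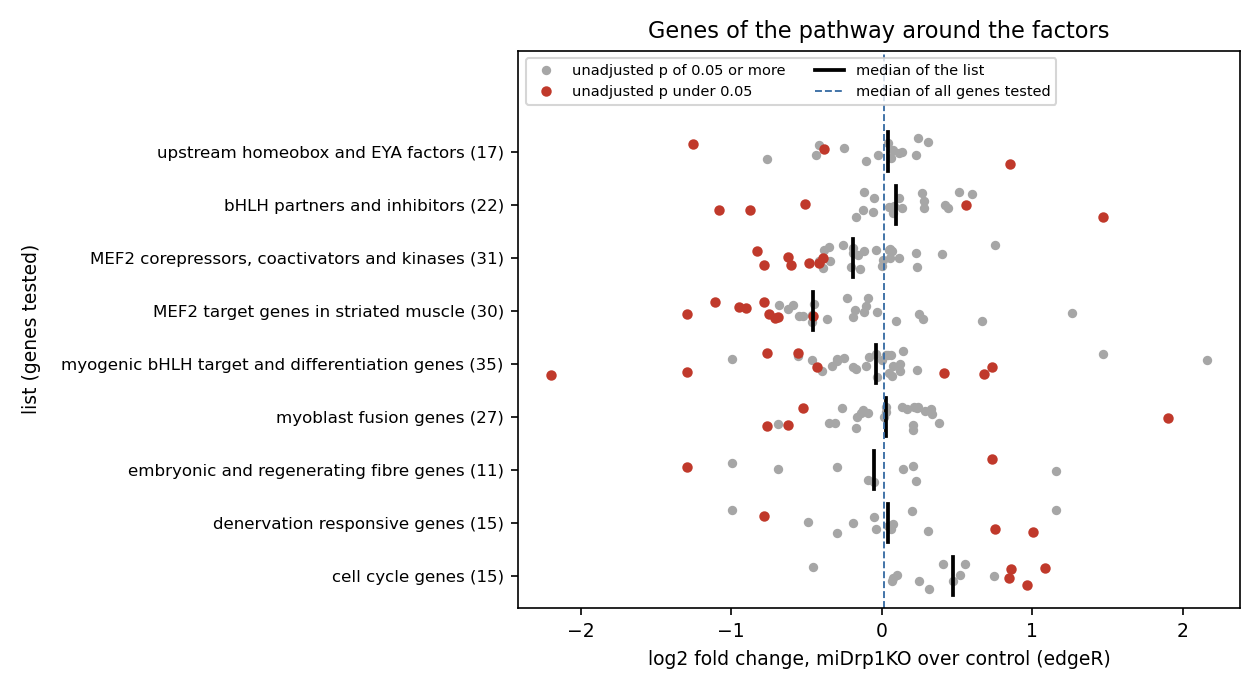
Log2 fold change of miDrp1KO over control (edgeR) for each tested gene of 9 lists around the factors, in red where the unadjusted p was under 0.05; black lines are list medians and the dashed blue line is the median of all genes tested (0.02). MEF2 targets lie mostly to the left, with a median of -0.46, and cell cycle genes mostly to the right, with a median of 0.47.

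Markers of the cells in which the progenitor factors are expressed were measured beside them. Of 20 satellite cell markers, 2 of which are members, 10 were higher and 10 lower, with 1 and 2 at an unadjusted p under 0.05 and a median of -0.03. Without miDrp1KO A, 4 were higher and 2 lower at that threshold. Their summed level, 2570 to 2907 CPM in control and 1874 to 2831 CPM in miDrp1KO muscle, was mostly Des, the desmin gene, which is also abundant in fibres. Without Des, the other 19 genes summed to 262 to 267 CPM in control and 233 to 253 CPM in miDrp1KO muscle. Those lower were Cdh15 and Tenm4 (-1.26, edgeR adjusted p = 0.362), and the higher one was Megf10 (0.59, edgeR adjusted p = 0.438), a receptor of satellite cells. Macrophage markers were higher for 6 of 10 genes, 4 of them at an unadjusted p under 0.05 (C1qa, C1qb, C1qc and Lyz2; 2 without miDrp1KO A), with sums of 172 to 314 CPM in control and 258 to 293 CPM in miDrp1KO muscle. Adipocyte markers were lower for 6 of 7 genes, 3 of them at an unadjusted p under 0.05 (Adipoq, Plin1 and Cfd), with sums of 188 to 397 CPM in control and 72.9 to 185 CPM in miDrp1KO muscle. DESeq2 called 1 of them, Adipoq (log2 fold change -1.26, DESeq2 adjusted p = 0.0216). Among the lists for endothelium, fibroblasts, smooth muscle and pericytes, Schwann cells and blood cells, 1 gene, the leukocyte antigen gene Ptprc (0.42), had an unadjusted p under 0.05. Without miDrp1KO A, 12 genes of these 5 lists did, 11 of them higher, with 4 each on the Schwann cell and on the smooth muscle and pericyte lists. The part of these cells in the members' values was not tested.

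The genes whose log2 CPM followed those of 3 members most closely over the 6 libraries were looked up among 9442 genes with a mean of at least 5 CPM. With Myod1 the highest Pearson r were 0.997 (Prdx5), 0.980 (Gna11) and 0.974 (Mrpl4), and with Mef2c they were 0.995 (Rfx5), 0.993 (Klf9) and 0.990 (Ccdc122). With Myog they were 0.970 (Noc3l), 0.966 (Eif4ebp1) and 0.965 (Rpain). These values describe 6 libraries that differ in depth and composition, and they are the highest among the 9442 genes compared.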

How the data were processed

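The authors deposited 1 file of whole, unnormalized read counts for each mouse, with 27179 Entrez genes of which 874 have no symbol; per the study's methods, ribosomal RNA was depleted with a stranded kit, libraries were sequenced in 2 pools, and reads were aligned to GRCm38 and counted with Rsubread. Which library was in which pool is not given in the sources used here. Groups were taken from the genotype labels. The main test was edgeR 4.0.16 under R 4.3.3: TMM scaling, genes kept by filterByExpr, a quasi-likelihood fit with robust dispersions, and a threshold of 0.05 after Benjamini-Hochberg adjustment of the 16483 p-values; the biological coefficient of variation was 0.252. The fit was tested on simulated data. SE is the log2 fold change divided by the root of the F statistic, and 95% intervals are 1.96 SE on each side. CPM, RPKM (over GENCODE M21 exon lengths), shares and the exact permutation tests (SciPy 1.17.1, Python 3.11.15, 2-sided) were computed here. Alternatives were RLE and upper quartile scaling, DESeq2 1.42.0, limma 3.58.1 voom, no filter, at least 10 counts in every library, the 28 ribosomal RNA genes and Lars2 left out, each library's ribosomal RNA share as a model term, and each library left out in turn. Loci are RefSeq gene spans on GRCm38.p6.

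Members and lists were chosen with earlier results of these data known. Genes were named by rule: every member; Dnm1l; in each list up to 4 tested genes of at least 1 CPM with the lowest unadjusted p; and for Myod1, Myog and Mef2c the 3 genes with the highest correlation. Id1, Snai1, Des, Mef2b and 1700113A16Rik, and genes named for a DESeq2 call, stand outside that rule and were chosen after their values were seen. No library was left out of the main tests. The precision of each value is set by its counts, and intervals from counts cover counting error only. A gene that the naming rule would give is not reported here.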

Additional observations from a re-analysis of the deposited data

How the results depend on the processing

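No member had an adjusted p under 0.05 in any of the 14 alternative fits. Of 139 member fold changes from these fits, 133 kept their sign. The number of members at an unadjusted p under 0.05, 2 with all libraries, was 1 where at least 10 counts were required in every library (Mymk was then not tested) and 1 with ribosomal RNA share as a model term (Pax7 in place of Mef2d and Mymk). It ran from 0 (without control B or miDrp1KO F) to 5 (without miDrp1KO A) when 1 library was left out. The 6 fold changes that turned sign were those of Pax3, Myf6 and Mef2c. With 1 library left out, Pax3 ran from -0.42 to 0.21, Myf6 from -0.50 to 0.16 and Mef2c from -0.26 to 0.050. Those above 0 were Pax3 without control B, control D or miDrp1KO E, Myf6 without miDrp1KO E or F, and Mef2c without F. The members' median log2 fold change turned to -0.045 with at least 10 counts in every library and to -0.047 with the ribosomal RNA term, and it ran from -0.0043 (without miDrp1KO A) to 0.18 (without E). The log2 ratio of Myog to Myod1 differed between groups by -0.61 (without miDrp1KO A) to 0.17 (without F), and by 0.04 without E. The cause was not tested.

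By DESeq2 the list counts at an unadjusted p under 0.05 stayed within 1.5 times those of edgeR, except for embryonic and regenerating fibre genes (4 beside 2), myofibre markers (8 beside 3), fast fibre markers (7 beside 4) and adipocyte markers (5 beside 3). Without miDrp1KO A, a setting chosen for the lists after the data were seen, 10 regulators of MEF2 and 11 of its targets were lower at an unadjusted p under 0.05, and 3 cell cycle genes were higher. Over all genes in that fit, 8.9% were lower and 8.55% higher at that threshold. In that setting the counts moved by over 1.5 times for embryonic fibre genes (4 beside 2), markers of satellite cells (6 beside 3), myofibres (6 beside 3) and macrophages (2 beside 4), and for the slow fibre, endothelium, fibroblast, smooth muscle and Schwann cell lists, which had 0 with all libraries. No paired analysis was possible because control and miDrp1KO mice have no replicate letter in common. With 3 mice a group, and 13989588 counts in the shallowest library, Mymk, Pax3, Pax7 and Myf5 are the members least able to show a difference.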
